A study of Mus musculus with 4 samples.

Results

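The genes described here encode 10 enzymes that make serine, asparagine and proline or carry the one-carbon unit of serine through the mitochondrial and cytosolic folate pathways. They were chosen by gene name, with earlier results of these data known. All 10 were found among the 22266 genes of the table, and all 10 passed the filter on low values that left 12029 genes for testing. The libraries hold poly(A) RNA of mouse embryonic stem cells, from the female line PGK12.1 with a floxed, HaloTag-bearing allele at each copy of Cbx2. The OHT group (n = 2, genotype label Knockout) was given 1.0 µM 4-hydroxytamoxifen for 48 hours, to day 2, and the EtOH group (n = 2, genotype label Wildtype) was given ethanol and is the day 0 control. Both groups thus share the floxed, tagged allele, the line, serum medium with leukemia inhibitory factor and added non-essential amino acids, and the batch label 2. The recombinase is not given in the sources used here, and no library combines the drug with intact Cbx2, so drug, time in culture and deletion cannot be told apart. Nothing in the labels says that the replicates were separate cultures, and the p-values below therefore measure only the spread between these libraries, which may be technical.

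Serine is made from the glycolytic intermediate 3-phosphoglycerate in steps catalysed by PHGDH, PSAT1 and PSPH. SHMT1 in the cytosol and SHMT2 in mitochondria split serine into glycine and a folate-bound one-carbon unit. In mitochondria, MTHFD2 and MTHFD1L oxidise that unit and release it as formate for purine and thymidylate synthesis. ASNS makes asparagine from aspartate and glutamine, and ALDH18A1 and PYCR1 make proline from glutamate. Most of these genes are known targets of the transcription factor ATF4, which binds composite C/EBP-ATF elements when amino acids are short, and the ASNS promoter is the classical example of such an element.

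The upstream sequences of Asns and Pycr1 are shown because they hold a match to the core letters of a C/EBP-ATF element. That of Shmt1 is shown because it was the member whose OHT libraries lay below its EtOH libraries. Each runs 5′ to 3′ on the minus strand of GRCm38.p6 (RefSeq), from 250 bases before the annotated start through the first 10 bases from it. Capitals mark matches on either strand to TGATGNAA, the core of the C/EBP-ATF element, or to GTTACA, the second element of the ASNS promoter as described in human cells.
Asns, chr6:7693200-7693459: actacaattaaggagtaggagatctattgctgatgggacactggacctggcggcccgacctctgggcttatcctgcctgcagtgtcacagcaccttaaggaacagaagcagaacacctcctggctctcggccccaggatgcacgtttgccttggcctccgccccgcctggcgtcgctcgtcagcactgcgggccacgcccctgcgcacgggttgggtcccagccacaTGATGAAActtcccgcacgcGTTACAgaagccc
Pycr1, chr11:120643739-120643998: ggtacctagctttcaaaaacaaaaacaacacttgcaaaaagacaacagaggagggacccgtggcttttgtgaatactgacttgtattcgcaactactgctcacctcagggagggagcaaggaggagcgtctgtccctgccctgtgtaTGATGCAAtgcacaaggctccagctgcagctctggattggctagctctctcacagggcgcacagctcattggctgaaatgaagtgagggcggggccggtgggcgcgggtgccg
Shmt1, chr11:60811256-60811515: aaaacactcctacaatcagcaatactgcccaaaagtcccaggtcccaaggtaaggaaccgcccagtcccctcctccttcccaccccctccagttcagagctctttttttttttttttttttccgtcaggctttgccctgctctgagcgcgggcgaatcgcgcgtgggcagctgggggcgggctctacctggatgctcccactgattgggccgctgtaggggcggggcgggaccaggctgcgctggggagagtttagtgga

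All 10 genes matched a RefSeq promoter, with 11 windows because Psat1 has a pair of annotated starts. The TGATGNAA match of Asns lay 23 to 16 bases before the RefSeq start, at 7693225 to 7693232 on chromosome 6, and the GTTACA match spanned that start, at 7693207 to 7693212. GENCODE places the 5′ end of Asns further upstream, at 7693254, so by that annotation both matches lie inside the gene. It places the 5′ end of Shmt1 at 60811718, so by that annotation the whole printed Shmt1 window lies inside the gene. The TGATGNAA match of Pycr1 lay 103 to 96 bases before the start, at 120643844 to 120643851 on chromosome 11. The 2 matches of Asns share no bases, and Pycr1 holds TGATGNAA alone. No other window of the 10 genes held either motif. By GENCODE the windows of Mthfd2 and Psat1 also lie wholly inside their genes, whose 5′ ends are at 83325908 and 15947337. Most of the Psph window lies inside its gene as well. The lack of a match therefore describes these RefSeq windows only, and sequence before the GENCODE 5′ ends was not searched for these genes. Over 32851 RefSeq windows of 260 bases, 3.59% held TGATGNAA and 7.32% held GTTACA, while 0.594% held both. A match is a description of the letters and not a measured site.

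Cbx2, the targeted gene, was read at 0.749 and 1.14 TPM in the OHT libraries and at 2.29 and 2.71 TPM in the EtOH libraries. TPM is a share of all transcripts corrected for length and scaled to a total of 1000000 per library. Cbx2 lay lower in both OHT libraries, and its limma adjusted p was 0.265, so it did not pass the threshold of 0.05. The unit does not keep the read depth, which is unknown here, and no counting interval was computed. The embryonic stem cell markers were abundant, with 8 markers summing to 12256 and 10989 TPM with OHT and to 9318 and 9261 TPM with EtOH. Dppa5a alone gave 7089 and 5623 TPM of these sums with OHT and 4733 and 4612 TPM with EtOH. The 9 fibroblast and feeder markers summed to 16.5 and 21.4 TPM with OHT and to 13.5 and 13.0 TPM with EtOH, almost all of it from Thy1 and Twist1, and Postn was listed at 0 throughout. In bulk RNA, fewer cells of a type and less RNA per cell cannot be told apart.

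Most of these enzymes stood higher with OHT, but none passed the threshold over all genes. The OHT pair exceeded the EtOH pair without overlap for 8 of the 10 genes, with ratios of means from 1.13 (Shmt2) to 1.54 (Pycr1), where 23.1% of all genes tested lay apart in that direction. For 1, Shmt1, the OHT pair lay wholly lower, as it did for 19.4% of all genes, and for Mthfd1l the pairs overlapped. The median log2 fold change of the 10 was 0.38, beside 0.02 over all genes tested. None of the 10 had a limma adjusted p under 0.05, a threshold that 0.0416% of all genes passed. At an unadjusted p under 0.05 stood 6 of the 10, all of them higher with OHT, where 6.02% of all genes were higher and 4.46% lower at that level. Summed over the 10 genes, levels were 1465 and 1653 TPM with OHT and 1222 and 1233 TPM with EtOH.

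**Figure D1:**
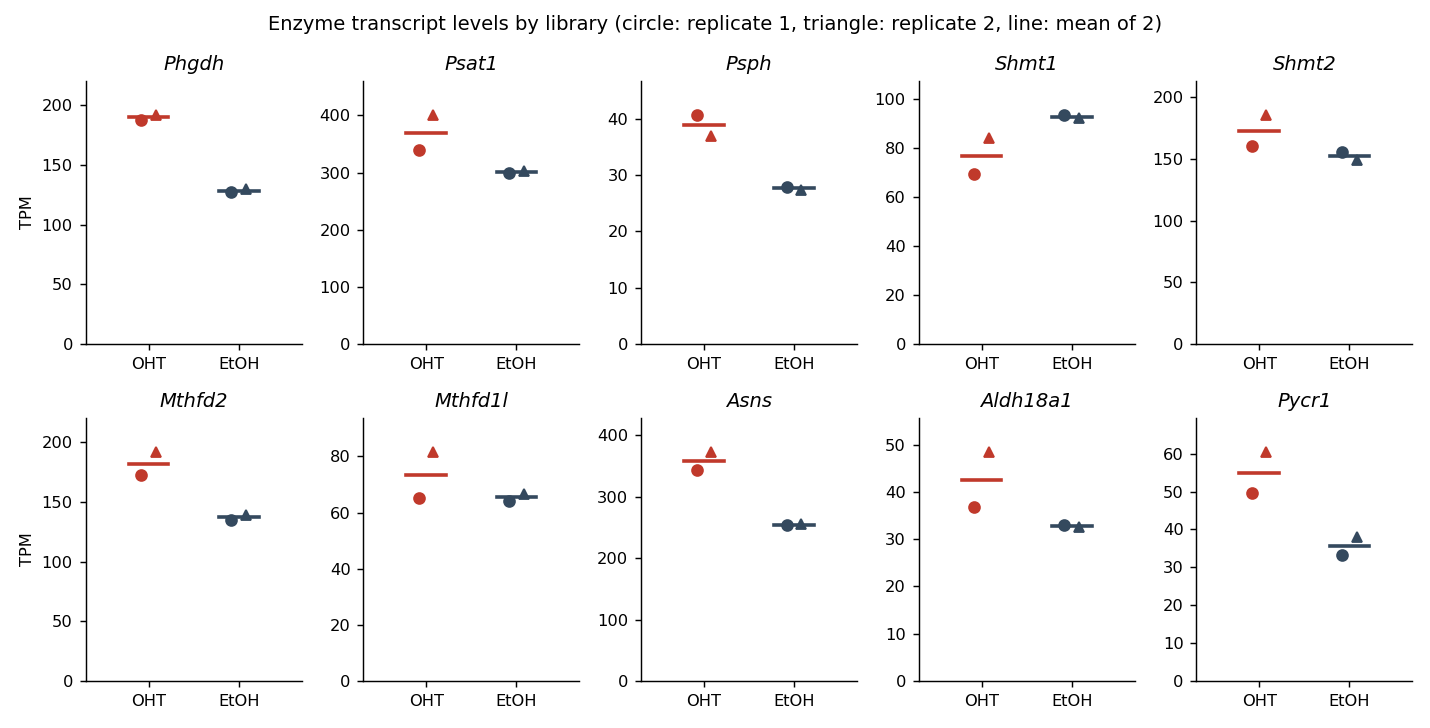
TPM (vertical axis, from 0) of each of the 10 genes in the 2 OHT and the 2 EtOH libraries. Circles are replicate 1, triangles replicate 2 and lines the mean of 2. The OHT points lie above the EtOH points for 8 genes, below them for Shmt1, and on both sides for Mthfd1l.

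Phgdh encodes 3-phosphoglycerate dehydrogenase, the first enzyme of serine synthesis (ENSMUSG00000053398.12, protein-coding, GRCm38 chromosome 3, 98313170 to 98339990, minus strand). Its level was 187.8 and 191 TPM in the OHT libraries and at 127 and 129.7 TPM in the EtOH libraries. The replicates of each group lay close together and the groups were well apart, with a ratio of means of 1.48. The log2 fold change on the log2(TPM + 1) scale was 0.56 (SE 0.09), and the limma adjusted p was 0.163, the smallest among the 10. By its unadjusted p, Phgdh ranked 64th of the 12029 genes tested. The annotation holds 7 transcripts at least 95% identical to Phgdh over at least 50% of its length, all of them processed pseudogenes and none analysed here, so reads may be shared with them and the value is uncertain to that extent.

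Psat1 encodes the aminotransferase of the next step (ENSMUSG00000024640.10, chromosome 19, 15904678 to 15947337, minus strand). It was the most abundant of the 10 by mean TPM in both groups, at 338.7 and 399.9 TPM with OHT and 298.5 and 302.9 TPM with EtOH. Both OHT libraries lay above, though they differed more from each other than OHT replicate 1 did from the EtOH pair. The mean was 369 ± 43.3 TPM with OHT and 300.7 ± 3.08 TPM with EtOH (SD, n = 2 each). Its log2 fold change was 0.29 (SE 0.11, limma adjusted p = 0.436). Psph encodes the phosphatase of the last step (ENSMUSG00000029446.15, chromosome 5, 129765558 to 129787449, minus strand), and was the least abundant of the 10 by mean TPM in both groups, though its OHT libraries overlapped with those of Aldh18a1. Its level was 40.6 and 37.0 TPM with OHT and 27.9 and 27.4 TPM with EtOH. The groups did not overlap, and the log2 fold change was 0.47 (SE 0.13, limma adjusted p = 0.318). Psph shares 452 exon bases with the chaperonin gene Cct6a on the other strand, which read 622 and 654 TPM with OHT and 753.0 and 755.9 TPM with EtOH. The protocols do not say whether strand was kept, so part of the Psph signal may belong to Cct6a, whose own values lay lower with OHT.

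The proportions of the serine pathway transcripts were compared within each library. The ratio of Psat1 to Phgdh was 1.80 and 2.09 in the OHT libraries and 2.35 and 2.34 in the EtOH libraries, so it was lower with OHT. The ratio of Psph to Phgdh was 0.216 and 0.193 with OHT and 0.2196 and 0.211 with EtOH, with overlapping groups. These pairs, like those of the one-carbon enzymes, were chosen after the values were seen. With 2 libraries a group, the smallest two-sided p of an exact permutation test is 0.333, and no test was run on a ratio.

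The cytosolic and mitochondrial serine hydroxymethyltransferases had fold changes of opposite sign, neither past the threshold. Shmt1, the cytosolic form (ENSMUSG00000020534.15, chromosome 11, 60788104 to 60811718, minus strand), was read at 69.7 and 84.3 TPM with OHT and at 93.4 and 92.3 TPM with EtOH. Both OHT libraries were lower, OHT replicate 1 more so, and the log2 fold change was -0.27 (SE 0.13, limma adjusted p = 0.524). Shmt2, the mitochondrial form (ENSMUSG00000025403.6, chromosome 10, 127517123 to 127522444, minus strand), was read at 160.6 and 185 TPM with OHT and at 155.9 and 149 TPM with EtOH. OHT replicate 1 stood only just above the higher EtOH library. The log2 fold change was 0.18 (95% interval -0.09 to 0.45, limma adjusted p = 0.644). Shmt1 shares 184 exon bases with Smcr8 and Shmt2 shares 32 with Ndufa4l2, each on the other strand.

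Set against each other within a library, Shmt2 was 2.31 and 2.20 times as abundant as Shmt1 in the OHT libraries and 1.67 and 1.61 times in the EtOH libraries. The replicates of each group were close and the groups did not overlap. The mean ratio was 2.25 ± 0.0742 with OHT and 1.64 ± 0.0388 with EtOH (SD, n = 2 each). A ratio within a library shows unequal change and not which of the pair moved.

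Mthfd2 encodes the mitochondrial methylenetetrahydrofolate dehydrogenase (ENSMUSG00000005667.9, chromosome 6, 83305691 to 83325908, minus strand). Libraries held it at 173 and 192 TPM with OHT and at 135 and 139 TPM with EtOH. Both OHT libraries were higher, and the log2 fold change was 0.41 (SE 0.10, limma adjusted p = 0.291). Mthfd1l encodes the mitochondrial enzyme that releases formate (ENSMUSG00000040675.18, chromosome 10, 3973118 to 4167081, plus strand). It was read at 65.1 and 81.6 TPM with OHT and at 64.3 and 66.8 TPM with EtOH, so OHT replicate 1 lay between the EtOH libraries. Its log2 fold change was 0.15 (95% interval -0.19 to 0.49, limma adjusted p = 0.775), and no difference was shown.

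Mthfd1, the cytosolic enzyme that takes up the formate and is not among the 10, read 98.7 and 119.6 TPM with OHT and 121.7 and 125 TPM with EtOH (log2 fold change -0.18, SE 0.12, limma adjusted p = 0.678). The ratio of Mthfd2 to Mthfd1 was 1.75 and 1.60 in the OHT libraries and 1.108 and 1.111 in the EtOH libraries. The ratio of Mthfd1l to Mthfd1 was 0.659 and 0.682 with OHT and 0.528 and 0.532 with EtOH. For both pairs the ratio of the mitochondrial to the cytosolic transcript was higher in each OHT library than in either EtOH library. Both ratios have Mthfd1 as denominator, which read lower in each OHT library than in either EtOH library, so they are not separate observations. How often other gene pairs lay apart in this way was not computed.

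**Figure D2:**
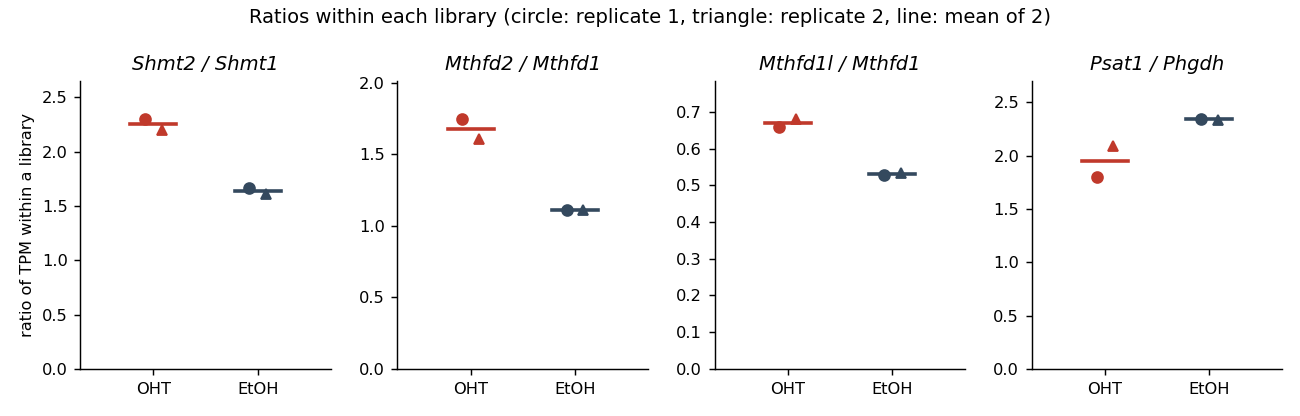
Ratio of the TPM of 2 genes within a library (vertical axes, from 0) in the 2 OHT and the 2 EtOH libraries, for mitochondrial over cytosolic one-carbon enzymes and for Psat1 over Phgdh. Circles are replicate 1, triangles replicate 2 and lines the mean of 2. Both OHT points lie above both EtOH points for the 3 one-carbon pairs and below them for Psat1 over Phgdh.

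Asns encodes asparagine synthetase (ENSMUSG00000029752.13, chromosome 6, 7675169 to 7693254, minus strand). Its transcript stood at 344 and 372.7 TPM with OHT and at 253.6 and 255 TPM with EtOH. The OHT libraries lay well above the EtOH pair, with a ratio of means of 1.41. The log2 fold change was 0.49 (SE 0.09, limma adjusted p = 0.211), and by its unadjusted p Asns ranked 87th of the genes tested. Its TPM was above that of 94.9% of the genes tested in EtOH cells, where it was second only to Psat1 among the 10. Asns carries both motifs printed above.

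Aldh18a1 encodes the enzyme that turns glutamate into the proline precursor (ENSMUSG00000025007.14, chromosome 19, 40550257 to 40588463, minus strand). Its level was 36.7 and 48.4 TPM with OHT and at 33.0 and 32.7 TPM with EtOH. OHT replicate 1 lay much nearer to the EtOH pair than OHT replicate 2 did, and the log2 fold change was 0.35 (SE 0.16, limma adjusted p = 0.525). Pycr1 encodes the mitochondrial reductase that completes proline synthesis (ENSMUSG00000025140.16, chromosome 11, 120635712 to 120643769, minus strand). It was read at 49.6 and 60.5 TPM with OHT and at 33.3 and 38.1 TPM with EtOH. It had the largest log2 fold change of the 10, at 0.61 (SE 0.15, limma adjusted p = 0.287), and also the widest spread between the EtOH libraries on that scale.

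Pycrl, which encodes a related reductase of proline synthesis, read 16.2 and 16.6 TPM with OHT and 20.9 and 22.3 TPM with EtOH (log2 fold change -0.38, SE 0.14, limma adjusted p = 0.443).

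The order of levels was close to the same in both groups. With OHT, Psat1 and Asns were the most abundant and their libraries overlapped, followed by Phgdh, Mthfd2 and Shmt2, whose neighbours also overlapped, then Shmt1 and Mthfd1l, again overlapping, and then Pycr1, Aldh18a1 and Psph, of which only Aldh18a1 and Psph overlapped. With EtOH the order was Psat1, Asns, Shmt2, Mthfd2, Phgdh, Shmt1, Mthfd1l, Pycr1, Aldh18a1 and Psph, and no neighbours overlapped. Phgdh therefore stood above Mthfd2 and Shmt2 with OHT, though its libraries overlapped with those of Mthfd2, and below both with EtOH.

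**Figure D3:**
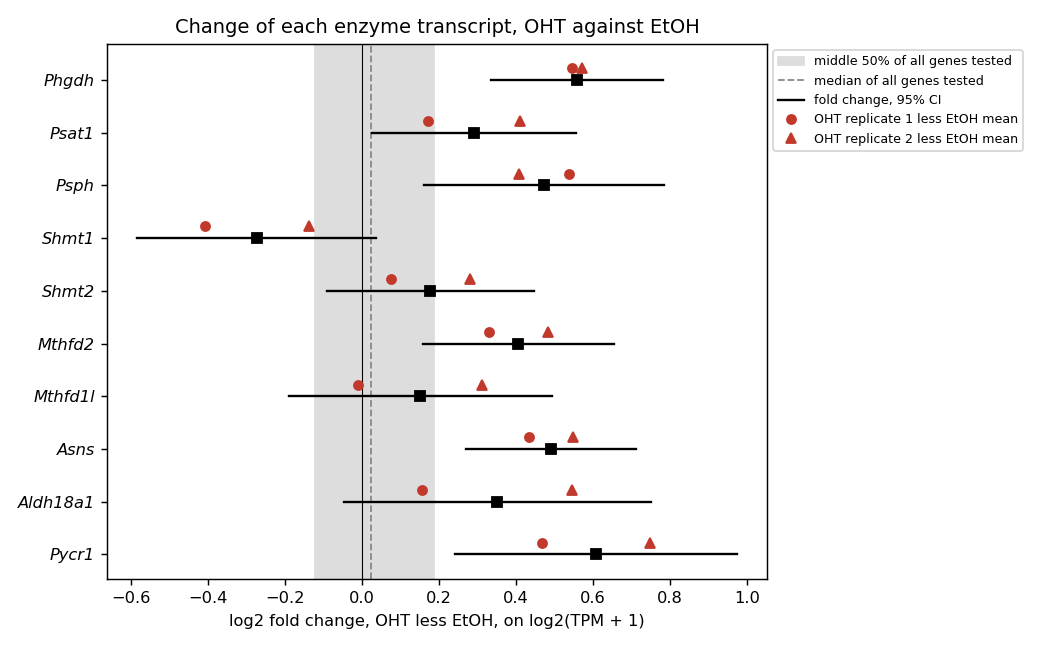
Log2 fold change, OHT less EtOH, of each gene on the log2(TPM + 1) scale (squares, with the 95% interval of the limma fit, not adjusted for the number of genes). Red points give each OHT library less the EtOH mean. The grey band holds the middle 50% of the fold changes of all genes tested, and the dashed line is their median of 0.02. Those fold changes use both OHT libraries, so the band does not give the spread of a single library. Phgdh, Psph, Mthfd2, Asns and Pycr1 lie right of the band in both OHT libraries, and the intervals of Shmt1, Shmt2, Mthfd1l and Aldh18a1 cross 0.

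The OHT libraries differed from each other more than the EtOH libraries did. OHT replicate 2 exceeded OHT replicate 1 for 9 of the 10 genes, Psph being the exception, with a median gap of 0.22 on the log2 scale, beside 0.23 over all genes tested. Against the EtOH mean, OHT replicate 1 had a median of 0.25 over the 10 genes and OHT replicate 2 one of 0.45, while that of all genes tested was -0.09 and 0.14. The gap between the OHT libraries correlated with log2 transcript length at a Pearson r of 0.53 over 12016 genes, which share the libraries and are no replicates, and the EtOH gap at 0.27. The part of length in the gaps of the 10 genes was not tested, and once the length and GC trend had been taken out of each library their median log2 fold change was 0.38, with none past the threshold.

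With either OHT library left out, Asns, Phgdh, Psat1, Psph, Mthfd2 and Pycr1 passed, while the calls of Shmt1, Shmt2, Mthfd1l and Aldh18a1 differed with the library kept. Without OHT replicate 1, 9 of the 10 passed as higher, all but Shmt1, where 24.6% of all genes tested passed in either direction. Without OHT replicate 2, 7 passed, of which Asns, Phgdh, Psat1, Psph, Mthfd2 and Pycr1 were higher and Shmt1 was lower, where 20.6% of all genes passed. These fits take the spread from the EtOH libraries, which lay closer together than the OHT libraries, and assume the same spread for the OHT library kept. Without EtOH replicate 1 or 2 none of the 10 passed.

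Most genes of the amino acid response also stood higher with OHT. Of 16 ATF4 pathway regulators and targets tested, none passed over all genes, 13 were higher and none lower at an unadjusted p under 0.05 (6.02% and 4.46% of all genes tested), and the OHT pair stood wholly higher for 14 and wholly lower for 1 (23.1% and 19.4% of all genes). Their median log2 fold change was 0.77. Atf4 itself read 257 and 267 TPM with OHT and 192 and 181 TPM with EtOH (log2 fold change 0.49, SE 0.09, limma adjusted p = 0.211). Nupr1, a stress-induced chromatin protein gene, averaged 57.7 ± 1.83 TPM with OHT and 21.2 ± 1.55 TPM with EtOH, and Stc2, a secreted glycoprotein gene, averaged 5.54 ± 0.477 TPM with OHT and 1.40 ± 0.0628 TPM with EtOH (SD, n = 2 each). Chac1, a glutathione-degrading enzyme gene, averaged 26.5 ± 3.09 TPM with OHT and 9.52 ± 0.494 TPM with EtOH (SD, n = 2 each). Of 8 amino acid transporters tested, none passed, 3 were higher and none lower at an unadjusted p under 0.05, beside the same 6.02% and 4.46% of all genes, and the median was 0.26. The OHT pair of libraries stood wholly higher for 4 transporters and wholly lower for 1, and the pairs overlapped for 3, beside 23.1% and 19.4% of all genes wholly higher and lower. The 3 that were higher at an unadjusted p under 0.05 were Slc1a4, Slc1a5 and Slc6a9. Slc1a4 carries serine and other neutral amino acids (log2 fold change 0.86, SE 0.18, limma adjusted p = 0.255). Slc1a5 is a glutamine carrier (0.74, SE 0.17, limma adjusted p = 0.267), and Slc6a9 a glycine carrier (0.72, SE 0.19, limma adjusted p = 0.318).

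The 7 glycolytic enzymes tested act on both sides of 3-phosphoglycerate, some before it and some, such as pyruvate kinase, after it. For all 7 the OHT pair stood wholly higher (23.1% of all genes). At an unadjusted p under 0.05 stood 5 of them (6.02% of all genes were higher at that level). Their median log2 fold change was 0.27, and none passed the threshold over all genes. The smallest p-values belonged to Tpi1, triosephosphate isomerase (log2 fold change 0.88, SE 0.08, limma adjusted p = 0.0615), Aldoa, an aldolase (0.59, SE 0.08, adjusted p = 0.110), and Pkm, pyruvate kinase (0.29, SE 0.08, adjusted p = 0.308).

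Of the other folate and glycine cleavage genes, 19 of 21 were tested. None passed, 1 was higher and 1 lower at an unadjusted p under 0.05, close to the 6.02% and 4.46% of all genes, and the median log2 fold change was -0.02. The OHT pair stood wholly lower for 7 of the 19 and wholly higher for 1, beside 19.4% and 23.1% of all genes, and no test compared this list with the 10 enzymes. Mthfs, which recycles a storage form of folate, read 6.16 and 4.20 TPM with OHT and 9.18 and 8.87 TPM with EtOH (log2 fold change -0.72, SE 0.22, limma adjusted p = 0.357). Aldh1l1, a cytosolic formyltetrahydrofolate dehydrogenase, read 4.69 and 4.99 TPM with OHT and 3.13 and 3.39 TPM with EtOH (0.46, SE 0.17, adjusted p = 0.443). Fpgs, which adds glutamates to folate, averaged 46.0 ± 1.76 TPM with OHT and 53.9 ± 0.862 TPM with EtOH (SD, n = 2 each; adjusted p = 0.552).

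Among 15 other enzymes of glutamate, proline and aspartate metabolism tested, none passed, 1 was higher and 1 lower at an unadjusted p under 0.05, close to the 6.02% and 4.46% of all genes, and the median log2 fold change was 0.01. The higher gene was Gpt2, a mitochondrial alanine transaminase, at 35.5 and 49.3 TPM with OHT and 23.0 and 24.2 TPM with EtOH (log2 fold change 0.80, SE 0.18, limma adjusted p = 0.267). Gls2, a glutaminase, averaged 16.0 ± 0.571 TPM with OHT and 11.9 ± 1.57 TPM with EtOH (SD, n = 2 each; adjusted p = 0.480).

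**Figure D4:**
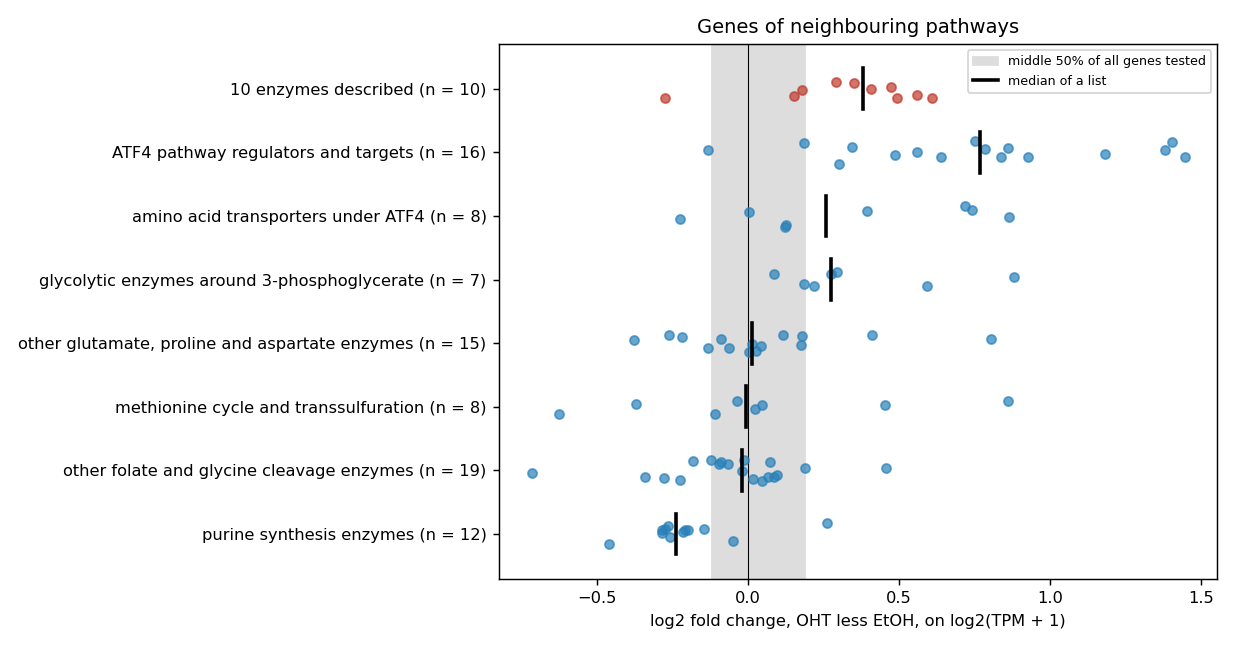
Log2 fold change, OHT less EtOH, on the log2(TPM + 1) scale of each tested gene (points, with random vertical offset) in the 10 enzymes and in lists of neighbouring pathways, with the median of each list as a black bar and the middle 50% of all genes tested as a grey band. The medians run from -0.24 for purine synthesis to 0.77 for the ATF4 list, with the 10 enzymes at 0.38.

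Genes whose values ran most like the median of the 10 were sought by Euclidean distance over the 4 libraries, on log2(TPM + 1) less the EtOH mean, among 7302 other named genes averaging 10 TPM or more. The nearest were Agpat2 (distance 0.0247), Cited2 (0.0287), Ralb (0.0297), Vps36 (0.0371) and Egln1 (0.0469). Within a distance of 0.1 stood 57 of the 7302 genes.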

How the data were processed

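The deposited table gives TPM per gene for each library, scaled to a total of 1000000. Trim Galore and Salmon with GRCm38 (mm10) are named, without versions, per the submitters' processing notes, and the annotation release is not given in the sources used here. A further 2 value columns matched no sample and were not used. Genes averaging 1 TPM or more were kept and compared as log2(TPM + 1), so fold changes of low genes are understated, with limma 3.58.1 in R 4.3.3 (mean-variance trend, two-sided, 2 residual and 4.01 prior degrees of freedom, Benjamini-Hochberg over 12029 genes). The same fit was also run on simulated data with independent noise and added changes larger than those of the 10 genes. That run cannot show how the fit does on changes of this size or on the length trend between libraries. Coordinates, lengths and overlaps come from GENCODE M21 (GRCm38), copies from blastn 2.17.0, promoters from RefSeq (GRCm38.p6), which matched 10 of 10 genes. For older symbols, RefSeq synonyms were used, and of rows sharing a symbol the more abundant. Members and lists were chosen with earlier results of these data known. Besides the 10 genes, Cbx2 and Atf4, up to 3 genes with the smallest p were named per pathway list, and the 5 nearest profiles. Genes outside this rule (Mthfd1, Dppa5a, Thy1, Twist1, Postn and the genes overlapping members) were named after their values were seen. A related result is not reported here.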

Additional observations from a re-analysis of the deposited data

How the results depend on the processing

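None of the 10 genes passed under pseudocounts of 0.5 or 5, without a filter or with one at 5 TPM, under quantile or median-of-ratios scaling, without the variance trend, or after correction for length and GC content, and each kept its direction. With the replicate number as a block, Asns, Phgdh, Mthfd2 and Pycr1 passed (4 of 10), where 474 of 12029 genes tested passed. With that correction added the same 4 passed, where 556 of 12016 genes did. The block left 1 residual degree of freedom, and the prior degrees of freedom became infinite, against 4.01 in the main fit. The SE of Asns was 0.121 with the block and 0.0904 without it, so its call was gained although its SE rose. Same-numbered libraries correlated at 0.29 in their deviations, but the labels do not say that the numbers pair the samples. The gap of replicate 2 less replicate 1 also correlated with log2 transcript length in both groups, at 0.53 with OHT and 0.27 with EtOH. The part of pairing or of length in the 0.29 was not tested. Leaving out each library gave 0 to 9 of the 10, and without OHT replicate 2 the log2 fold change of Mthfd1l turned to -0.0097, in a range up to 0.31. Over all genes 5 passed, against 0 with no filter, 3 under either scaling or without the variance trend, 52 after correction for length and GC, 474 with the block, 556 with both, and 34 to 2957 with a library left out. The log2 difference of Shmt2 to Shmt1 was 0.45, and 0.38 after that correction, with or without the block. The cause of these moves was not tested. The read depth is unknown, so its part in what was called was not tested.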

Other observations

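Transcripts of purine synthesis, a pathway that uses the one-carbon units, mostly stood lower with OHT. Of 12 purine synthesis enzymes tested, none passed over all genes, 3 were lower and none higher at an unadjusted p under 0.05, where 4.46% of all genes were lower at that level. The OHT pair stood wholly lower for 8 of the 12 and wholly higher for 1, beside 19.4% and 23.1% of all genes tested, and the median log2 fold change was -0.24. Adsl, which acts at a pair of steps of the pathway, read 88.5 and 96.5 TPM with OHT and 128 and 127 TPM with EtOH (log2 fold change -0.46, SE 0.10, limma adjusted p = 0.265). Prps1, which makes the activated ribose, averaged 258 ± 23.7 TPM with OHT and 310 ± 1.98 TPM with EtOH (SD, n = 2 each; adjusted p = 0.441). Atic, the enzyme of the last steps to inosine monophosphate, averaged 149 ± 17.5 TPM with OHT and 181 ± 8.85 TPM with EtOH (SD, n = 2 each; adjusted p = 0.476). The medians of the list against the EtOH mean were -0.36 in OHT replicate 1 and -0.11 in OHT replicate 2.

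In the methionine cycle and transsulfuration, 8 of 10 genes were tested and none passed, with 2 higher and 2 lower at an unadjusted p under 0.05, beside 6.02% and 4.46% of all genes, and a median log2 fold change of -0.01. Cth, which makes cysteine from cystathionine, read 94.3 and 104.6 TPM with OHT and 74.1 and 70.5 TPM with EtOH (log2 fold change 0.45, SE 0.11, limma adjusted p = 0.282). Gnmt, a glycine methyltransferase, read 3.17 and 3.64 TPM with OHT and 1.45 and 1.40 TPM with EtOH (0.86, SE 0.17, adjusted p = 0.226). Ahcy, which clears S-adenosylhomocysteine, read 9.58 and 8.95 TPM with OHT and 16.3 and 13.5 TPM with EtOH (-0.63, SE 0.18, adjusted p = 0.328).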
